A study of Mus musculus with 2 samples.

Results

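Orm1, Orm2, Orm3 and Pltp are 4 of the 31053 genes counted in single epidermal lymphocytes of the mouse ear, and they are described here mainly in dendritic epidermal T cells (DETCs), the γδ T cells that reside in mouse epidermis. The 4 genes were chosen by name with their measured levels already known, namely that Orm2 and Pltp differed between the treatments and that the RNA of the family lay in DETCs, so all levels and differences of the 4 genes below are descriptions and not tests. Sorting for live cells of the CD45+EpCAM-MHC-II- phenotype was done on ear epidermis of 8 week old female FVB/NJ mice of wild-type (WT) genotype, 7 d after intradermal injection of either an isotype control antibody or an antibody against Skint1, a keratinocyte protein needed for the selection of DETCs in the thymus. All mice thus received an antibody, and no uninjected mice were part of the comparison. Each treatment gave 1 library of the 10x 3′ type. Each group was a single sample. Samples are counted in mice per the methods, but whether cells of 1 mouse or of several were sorted for a library is not clear from the labels. Since cells of 1 library are not replicates, treatment and library cannot be told apart, and no test between the treatments could be made.

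The libraries held 27272211 (isotype control) and 32450957 (Skint1 antibody) unique molecular identifiers (UMIs, each standing for 1 captured mRNA molecule). A barcode counted as a cell if it had between 500 and 2500 genes and no more than 12% mitochondrial UMIs, which kept 4242 and 5961 cells. DETCs were the cells with 3 or more UMIs of Trdc, 3 or more of Cd3d, Cd3e and Cd3g together, and none of Trac, Cd4, Cd8a or Cd8b1. This gate held 3544 of the isotype control cells (83.5%) and 4945 of the Skint1 antibody cells (83.0%). Their median depth was 4028 and 3577 UMIs. All 7 DETC marker genes were detected in the gate, including Trdv4 at 978 and 789 counts per 1000000 UMIs (CPM), and the αβ T cell genes Trac, Cd4, Cd8a and Cd8b1 were at 0 by construction. The gate did not ask for Trdv4, so other γδ T cells could enter it. Of 7 markers listed for dermal γδ T cells 6 were in the files, and all 6 were detected in the gate, at a summed 50.8 and 42.8 CPM, among them Il17a with 161 and 118 UMIs. Cells with a Trac UMI and no Trdv4 UMI were taken as αβ T cells (197 and 213 cells). A gate on Il7r, Rora and Gata3 (3 or more UMIs together), with at most 2 CD3 UMIs and no Trdv4, was meant for innate lymphoid cells (ILCs) and held 82 and 139 cells. It was mixed. All 8 keratinocyte markers but Krt1 in the isotype control library were detected there, at a summed 520 and 4731 CPM against 36.8 and 51.2 CPM in DETCs, and Langerhans cell or myeloid markers were at 1392 and 2517 CPM. The 7 ILC markers, among them the 3 gate genes, summed to 1708 and 1824 CPM against 816 and 772 CPM in DETCs. Of the others, Areg was at 230 and 325 CPM (593 and 557 in DETCs) and Klrb1b at 13.1 and 12.1 CPM (138 and 129 in DETCs). Il1rl1 had 0 and 3 UMIs and Ncr1 0 and 1 UMIs. Since it was mixed, it is called the CD3-low gate below. Only 5 kept barcodes occurred in both libraries. A level is the UMIs of a gene over all UMIs of the gate, in CPM. A pair of values gives the isotype control library first and the Skint1 antibody library after it. Intervals in parentheses are 95% intervals, exact Poisson for levels, conditional binomial for ratios and Clopper-Pearson for shares, and they cover counting error only.

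Orosomucoids, also called α1-acid glycoproteins, are small secreted proteins of the lipocalin family that bind lipids and drugs in plasma. They are best known as acute-phase proteins of the liver, where C/EBP factors, glucocorticoids and cytokines such as IL-6 and IL-1 drive their transcription. Pltp encodes the phospholipid transfer protein, a secreted relative of the lipopolysaccharide-binding protein (LBP) and of the bactericidal protein BPI, which moves phospholipids between lipoproteins and is a target of the liver X receptors (LXR). These are known roles in other tissues and not results of these data.

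The 3 orosomucoid genes lay side by side on the plus strand of chromosome 4 (GRCm38, GENCODE vM21), within 21319 bp. Orm1 (ENSMUSG00000039196) spanned chr4:63344560-63348163, Orm3 (ENSMUSG00000028359) chr4:63356162-63359511 and Orm2 (ENSMUSG00000061540) chr4:63362449-63365878, each with 6 exons and 1 annotated transcript of 773 to 775 bases. The only other gene inside the region was a pseudogene, Gm11212. Over the aligned transcripts Orm1 and Orm2 were 91.0% identical, Orm2 and Orm3 88.5%, and Orm1 and Orm3 86.5%. Reads of near-identical genes can be assigned to the wrong copy or dropped, so stretches as long as the 98 base cDNA read were compared over the last 500 bases of each transcript. Of 403 such stretches, 51 were shared letter for letter between Orm1 and Orm2 and 0 between Orm3 and either of the others. The mice were FVB/NJ and the reference is C57BL/6, so strain differences in these copies were not seen here. Pltp (ENSMUSG00000017754) lay on the minus strand at chr2:164839518-164857711, with 15 exons in its 2226 base transcript, and overlapped Ctsa on the opposite strand.

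Orm2 and Orm3 differed in level and in their relation to treatment in the same cells, so the 250 bases before their starts are shown side by side. The starts are those of RefSeq. That of Orm2 is also the GENCODE start, that of Orm3 lies 4 bases before the GENCODE start, and that of Pltp lies 3 bases inside the GENCODE gene. Both are plus strand sequences of RefSeq (GRCm38.p6), at chr4:63362199-63362448 for Orm2 and chr4:63355908-63356157 for Orm3. Capitals mark matches to a C/EBP type motif (TTNNGNAA, either strand) and to a TATA box (TATAAA, either strand).
Orm2: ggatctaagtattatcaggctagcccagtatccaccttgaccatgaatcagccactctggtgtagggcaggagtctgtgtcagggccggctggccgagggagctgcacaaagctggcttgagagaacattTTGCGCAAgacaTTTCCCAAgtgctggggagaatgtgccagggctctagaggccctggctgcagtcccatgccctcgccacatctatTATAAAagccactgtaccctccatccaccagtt
Orm3: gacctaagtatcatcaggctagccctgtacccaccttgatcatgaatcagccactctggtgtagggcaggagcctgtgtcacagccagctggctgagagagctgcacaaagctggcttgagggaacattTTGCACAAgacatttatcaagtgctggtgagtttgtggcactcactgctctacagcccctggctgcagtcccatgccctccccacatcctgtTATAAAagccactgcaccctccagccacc
The aligned promoters were 89.0% identical. Orm2 held 2 C/EBP type matches, TTGCGCAA (120 bases before the start, a match on both strands) and TTTCCCAA (108 bases before), and Orm3 held 1, TTGCACAA (121 bases before). Both held 1 TATA box, 33 bases before the RefSeq start of Orm2 and 29 before that of Orm3, and the offset between the annotations makes up the difference of these distances. Among 32851 mouse promoter windows of this length, 36.8% held the C/EBP type motif and 12.4% the TATA box, so these letters are common. The glucocorticoid receptor motif TGTTCT occurred 1 time in Orm2 and 0 times in Orm3 (16.1% of all windows held it), and overlapped neither motif. The 250 bases before the RefSeq start of Pltp (chr2:164857709-164857958, minus strand) held 1 C/EBP type match, no TATA box and no match to the nuclear receptor motif AGGTCA, which 14.0% of all windows held. Of the 4 genes, 3 had a promoter in the table used. A match here is a match of letters and no evidence of binding.

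Orm3 was the most abundant of the 4 genes in DETCs. It had 4790 UMIs in the isotype control library, 327 CPM (318 to 336), and 6460 UMIs in the Skint1 antibody library, 345 CPM (337 to 354). By its mean level it ranked 372 among the 2859 genes with at least 50 CPM in DETCs. Orm2 had 874 and 1526 UMIs, or 59.6 CPM (55.7 to 63.7) and 81.6 CPM (77.5 to 85.8), and ranked 2060. Orm1, the third orosomucoid, had 1 and 5 UMIs, or 0.0682 CPM (0.00173 to 0.380) and 0.267 CPM (0.0868 to 0.624), and did not reach the 50 CPM minimum. Pltp had 1475 and 1182 UMIs, or 101 CPM (95.5 to 106) and 63.2 CPM (59.6 to 66.9), and ranked 1756. The order of the levels was Orm3, Pltp, Orm2, Orm1 under isotype control and Orm3, Orm2, Pltp, Orm1 under Skint1 antibody, and no neighbouring intervals overlapped in either order. The intervals do not cover reads that Orm2 may lose in stretches shared with Orm1, which was not tested. These are UMI levels from 3′ ends and were not divided by transcript length, since each molecule is counted once. Of the orosomucoid UMIs from Orm2 and Orm3, Orm2 made up 15.4% (14.5 to 16.4) and 19.1% (18.3 to 20.0).

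The RNA was not confined to a few cells. The 10 DETCs richest in Orm3 held 2.15% and 1.24% of its UMIs, those richest in Orm2 5.03% and 3.28%, and those richest in Pltp 3.59% and 4.06%. The highest count in a single DETC was 15 and 10 UMIs for Orm3, 6 and 6 for Orm2, and 8 and 6 for Pltp. Free RNA from broken cells gives UMIs to every barcode, so it was read from barcodes with 1 to 100 UMIs. There, Orm3 was at 256 and 266 CPM, Pltp at 48.8 and 34.2 CPM, Orm2 at 35.6 and 51.0 CPM and Orm1 at 1.98 and 4.58 CPM. Judged from 5 keratin genes, free RNA was 1.79% and 2.14% of the UMIs in DETCs. That share would give DETCs 4.58 and 5.67 CPM of Orm3, 0.637 and 1.09 CPM of Orm2 and 0.875 and 0.730 CPM of Pltp. For Orm1 it would give 0.0354 and 0.0978 CPM, values inside the interval of the Orm1 level, so Orm1 transcripts of DETCs were not detectable above free RNA.

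**Figure D1:**
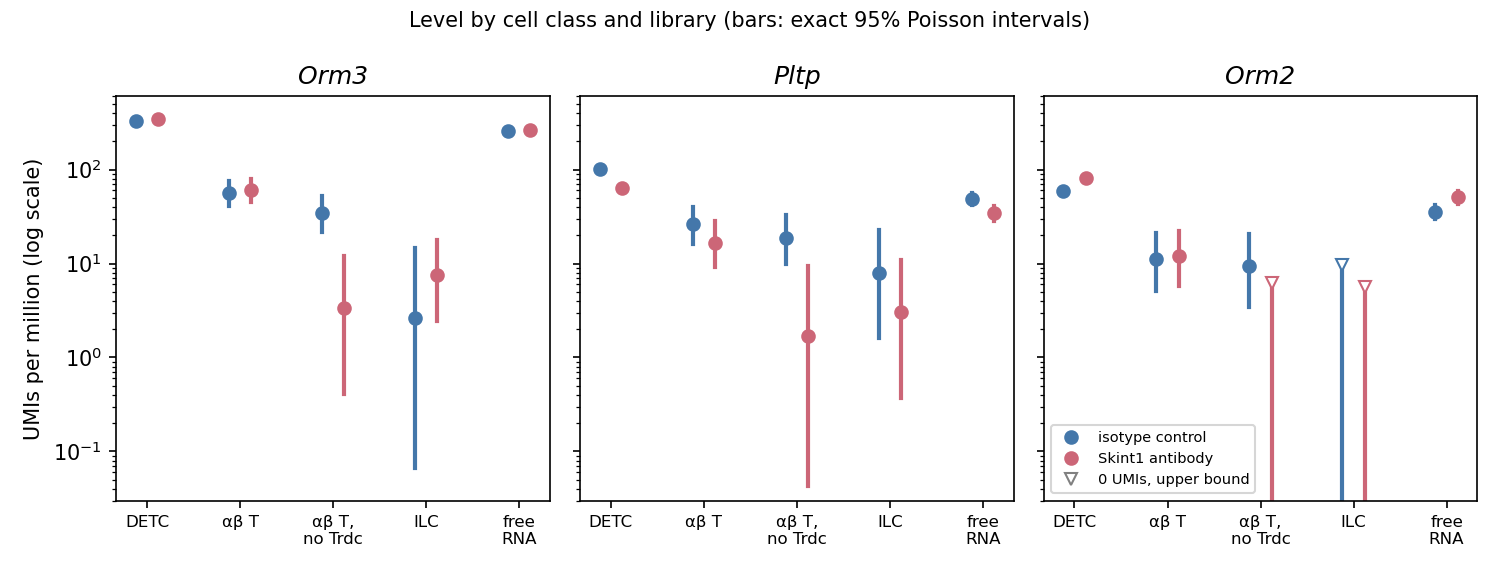
Levels of Orm3, Pltp and Orm2 (CPM, log axis) in DETCs, in αβ T cells, in αβ T cells without a Trdc UMI, in the CD3-low gate (marked ILC) and in free RNA, in the isotype control library (blue) and the Skint1 antibody library (red). Vertical bars are exact 95% Poisson intervals and open triangles the upper bound where 0 UMIs were counted. In each library every gene was higher in DETCs than in the other gates, and free RNA lay nearest to DETCs.

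The question of which lymphocytes carry these transcripts was read within each library. In αβ T cells Orm3 had 45 and 51 UMIs (56.2 and 61.0 CPM), so DETCs were 5.81-fold (4.34 to 7.98) and 5.66-fold (4.30 to 7.62) higher. Orm2 had 9 and 10 UMIs there (11.2 CPM in the isotype control library), and DETCs were 5.30-fold (2.78 to 11.6) and 6.82-fold (3.70 to 14.3) higher. Pltp had 21 and 14 UMIs (26.2 and 16.7 CPM), and DETCs were 3.84-fold (2.50 to 6.22) and 3.78-fold (2.24 to 6.93) higher. With no upper limit on genes per barcode the log2 ratio in the Skint1 antibody library went from 1.92 to 0.98 (0.49 to 1.51) for Pltp and from 2.77 to 1.98 (1.36 to 2.67) for Orm2. Free RNA would account for 5.79 and 5.02 CPM of Orm3 in αβ T cells. For scale, of the genes with a mean of 50 CPM over both gates, 11.8% (328 of 2787) and 10.0% (268 of 2669) were at least 2-fold higher in DETCs than in αβ T cells. Orm3 in both libraries and Pltp in the isotype control library reached that mean and that fold, whereas Orm2 fell short of the mean level.

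The αβ T cell gate held barcodes with γδ T cell RNA. A Trdc UMI was present in 39 of 197 and 57 of 213 of its cells. These cells carried 23 of the 45 and 49 of the 51 Orm3 UMIs of the gate, 3 of the 9 and 10 of the 10 Orm2 UMIs, and 9 of the 21 and 13 of the 14 Pltp UMIs. Without them, Orm3 in αβ T cells was at 34.7 CPM (21.7 to 52.5) in the isotype control library and at 3.35 CPM (0.405 to 12.1) in the Skint1 antibody library, and DETCs were 9.43-fold (6.22 to 15.1) and 103-fold (28.6 to 852) higher. The latter rests on 2 UMIs, and free RNA would give 6.02 CPM there, so Orm3 was not above free RNA in these cells of the Skint1 antibody library. Orm2 kept 6 UMIs in the isotype control library, for a 6.31-fold (2.89 to 17.2) higher level in DETCs. These 6 UMIs lay in 3 cells, with 4 in a single cell. In the Skint1 antibody library Orm2 kept 0 UMIs, and DETCs were at least 16.3-fold higher, taking 3 UMIs in the gate as the floor. Pltp kept 12 UMIs, which lay in 5 cells with 5 in a single cell, and 1 UMI. Its level in DETCs was 5.32-fold (3.04 to 10.3) and 37.8-fold (6.77 to 1493) higher. The latter rests on 1 UMI, under that floor, at 1.67 CPM (0.042 to 9.32) in αβ T cells, an interval that holds the 0.775 CPM that free RNA would give, so Pltp was not above free RNA there either. How far barcodes with RNA of a DETC and an αβ T cell together entered these values was not tested.

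In the CD3-low gate the 4 genes were near or at 0. Orm2 had 0 UMIs in both libraries, and DETCs were at least 7.61-fold and 17.9-fold higher against the floor of 3 UMIs. Orm3 had 1 and 5 UMIs, which put DETCs 125-fold (22.4 to 4943) and 45.5-fold (19.5 to 140) higher, of which the 125-fold rests on 1 UMI, under that floor. Pltp had 3 and 2 UMIs, with DETCs 12.8-fold (4.39 to 62.3) and 20.8-fold (5.76 to 172) higher. The former rests on 3 UMIs that all sat in 1 cell, which its interval does not cover. The latter rests on 2 UMIs, under that floor. Orm1 had 0 and 1 UMIs. In this comparison 14.7% (411 of 2796) and 14.8% (395 of 2663) of the genes with a mean of 50 CPM over both gates were at least 2-fold higher in DETCs. Orm3 in both libraries and Pltp in the isotype control library reached that mean and that fold. Orm2, and Pltp in the Skint1 antibody library, fell short of the mean level.

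The comparison of the antibodies asks what changes in DETCs when Skint1 is blocked. In DETCs, Orm2 was 1.37-fold (1.26 to 1.49) higher under Skint1 antibody than under isotype control, which is 0.45 (0.33 to 0.57) as a log2 ratio and the third highest of 2859 genes. Pltp was 1.59-fold lower, a log2 ratio of -0.67 (-0.78 to -0.56), the 7th lowest. Orm3, the close relative of Orm2, differed by a log2 ratio of 0.08 (0.03 to 0.13), and with at most 5% mitochondrial UMIs by 0.03 (-0.07 to 0.12), an interval that holds 0. Orm1 had a log2 ratio of 1.97 (-1.19 to 7.53) from 6 UMIs in all, which shows no direction. Over all genes with at least 50 CPM the median log2 ratio was -0.03, 6 genes (0.210%) had a log2 ratio of 0.32 or more, the limit set for a difference, and 43 (1.50%) lay at least as far below 0. Orm2 was one of the former and Pltp of the latter, as their choice implies, and nothing further is read from those counts.

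**Figure D2:**
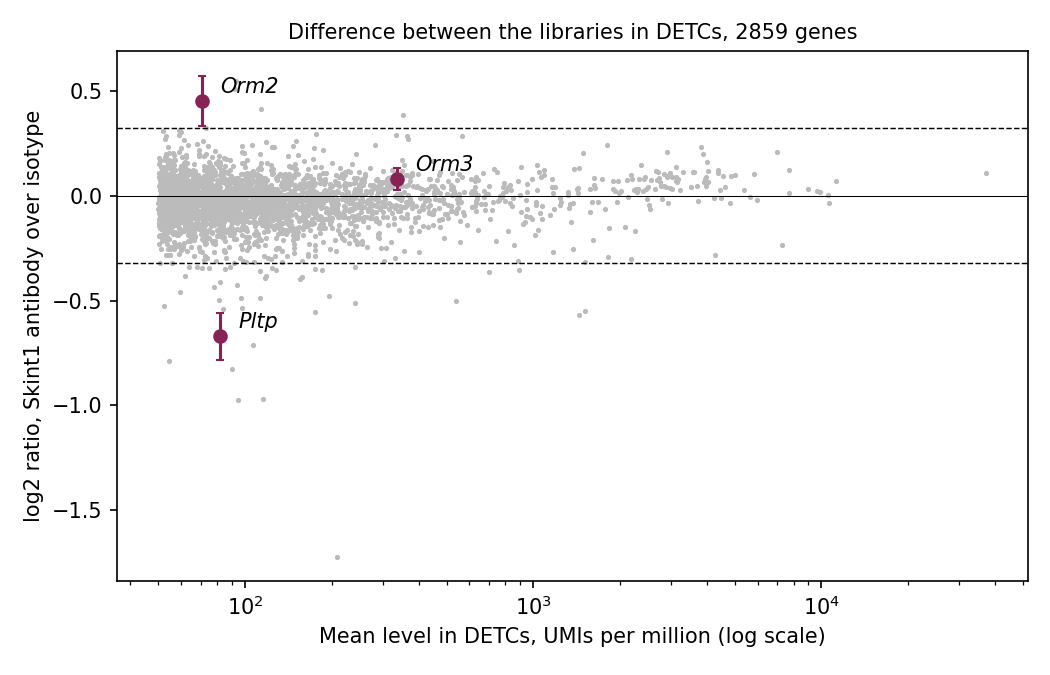
Log2 ratio of the Skint1 antibody over the isotype control library against mean level (CPM, log axis) for 2859 genes in DETCs, with Orm2, Orm3 and Pltp in purple with 95% counting intervals and dashed lines 0.32 above and below 0. Orm2 at 0.45 lies above the upper line, Pltp at -0.67 below the lower line and Orm3 at 0.08 between them.

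Comparison within the same cells does not depend on the total counts of the libraries. The ratio of Orm2 to Orm3 UMIs was 0.182 under isotype control and 0.236 under Skint1 antibody, a log2 difference of 0.37 (0.24 to 0.51). The ratio of Pltp to Orm3 was 0.308 and 0.183, a log2 difference of -0.75 (-0.88 to -0.63). Outside the DETC gate the counts were small. In αβ T cells the log2 ratio between the libraries was 0.09 (-1.36 to 1.56) for Orm2, 0.12 (-0.49 to 0.73) for Orm3 and -0.65 (-1.74 to 0.40) for Pltp, intervals that hold both 0 and the DETC value. Cells of the DETC gate with more than 2500 genes, left out above, numbered 312 and 287. In them Orm2 was at 72.6 and 91.8 CPM, a log2 ratio of 0.34 (0.07 to 0.60), Orm3 at 218 and 230 CPM, a log2 ratio of 0.08 (-0.08 to 0.24), and Pltp at 102 and 94.3 CPM, a log2 ratio of -0.11 (-0.35 to 0.13). The Pltp difference was thus not seen in these barcodes, whose interval excludes the value of the other DETCs.

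Shares of cells with a UMI depend on depth, so each DETC was thinned to 2000 UMIs, and shares are means of 20 random thinnings over 3410 and 4743 DETCs. A further 134 and 202 DETCs were too shallow and were left out. Orm3 was found in 45.0% (43.4 to 46.7) and 47.0% (45.6 to 48.4) of thinned DETCs, which differ by 1.98 points (Newcombe interval -0.22 to 4.16). Orm2 was found in 9.44% (8.48 to 10.5) and 12.7% (11.8 to 13.7), which differ by 3.26 points (1.87 to 4.60). Pltp was found in 16.3% (15.1 to 17.6) and 10.1% (9.30 to 11.0), which differ by -6.15 points (-7.66 to -4.64). Orm1 was found in 0.0117% and 0.0506%. Without thinning the shares were 65.9% and 65.3% for Orm3, 17.1% and 21.2% for Orm2 and 29.8% and 17.9% for Pltp. For comparison with other gates, thinned cells of the CD3-low gate showed Orm3 in 0.519% and 1.03%, Pltp in 0.779% and 0.662% and Orm2 in 0% of 77 and 136 cells, with Clopper-Pearson upper bounds of 4.68% and 2.68%. These bounds hold for detection at 2000 UMIs and not for the share of cells that carry the RNA. Thinned αβ T cells showed Orm3 in 7.84% (4.49 to 12.7) and 8.70% (5.13 to 13.5), Pltp in 3.13% and 2.81% and Orm2 in 2.16% and 3.01%, and those without Trdc showed Orm3 in 5.29% (2.28 to 10.0) and 0.528% (0.018 to 3.86). Median depth was 4570 and 4334 UMIs in the CD3-low gate and 3766 and 3581 UMIs in αβ T cells, against 4028 and 3577 in DETCs.

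**Figure D3:**
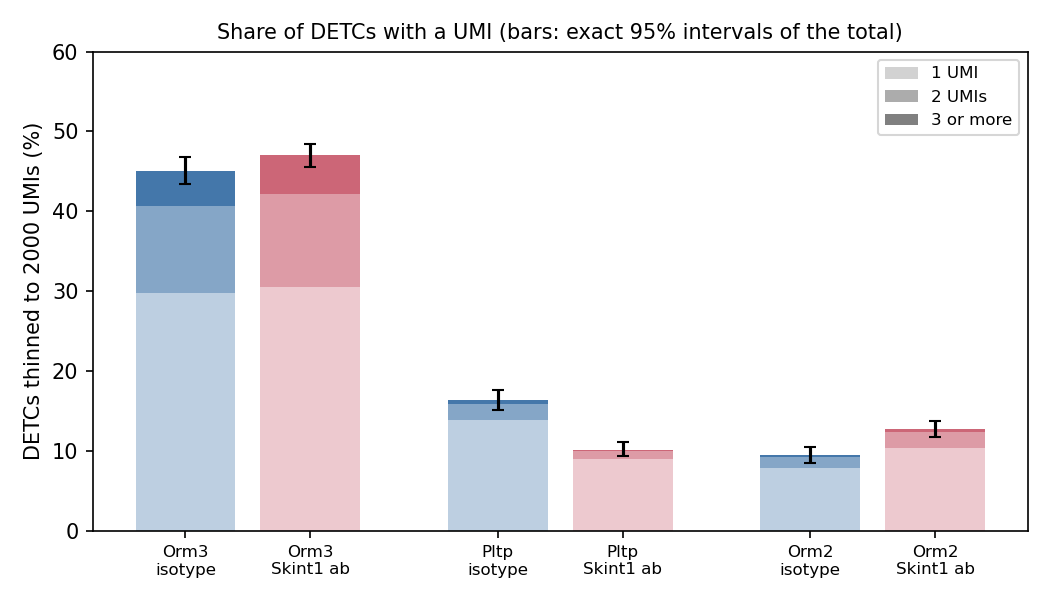
Share of DETCs, thinned to 2000 UMIs, with 1, 2 or 3 and more UMIs (light to dark) of Orm3, Pltp and Orm2 in the isotype control library (blue) and the Skint1 antibody library (red), with exact 95% intervals of the total. Most positive cells held 1 UMI, Orm2 was more frequent and Pltp less frequent in the Skint1 antibody library, and the Orm3 intervals overlapped.

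Counts were more uneven among DETCs than Poisson sampling gives. The variance over the mean of the thinned counts (the Fano factor, which is 1 for purely random sampling) was 1.26 and 1.26 for Orm2, 1.24 and 1.20 for Orm3 and 1.18 and 1.15 for Pltp, against a median of 1.06 and 1.06 over 2762 genes. Of those genes, which were not matched to the members by level, 12.9% and 11.3% were more uneven than Orm2, 13.9% and 15.2% more than Orm3 and 18.9% and 19.9% more than Pltp. Cells with 3 or more UMIs of Orm3 were 4.37% and 4.81% of thinned DETCs, where a Poisson law with the same mean gives 2.98% and 3.42%. For Orm2 they were 0.238% and 0.400%, against 0.0220% and 0.0552%.

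Whether the same cells carry the transcripts was asked by co-detection in thinned DETCs. Orm2 and Orm3 were found together in 169 and 328 cells, where independence gives 145 and 283, an odds ratio of 1.39 (1.09 to 1.76) and 1.41 (1.18 to 1.68). Orm2 and Pltp were found together in 60.3 and 77.3 cells on average, with 52.4 and 61.1 under independence and odds ratios of 1.20 (0.875 to 1.62) and 1.36 (1.03 to 1.77). For Orm3 and Pltp the odds ratios were 0.953 (0.790 to 1.15) and 1.12 (0.925 to 1.36). Orm2 was found in 11.0% and 14.7% of Orm3-positive cells and in 8.18% and 10.9% of Orm3-negative cells. None of the 3 genes was found in 42.3% and 42.8% of thinned DETCs. These associations are weak, in sparse counts, with intervals that take in 1 under some other settings, and are not offered as a link between the genes.

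The genes whose detection was most like that of each member were ranked over 2761 other genes by the smaller of the phi coefficients of the libraries (mean of 10 thinnings). For Orm2 they were Orm3 (phi 0.0427 and 0.0497), Gstm5, Hint1, Stmn1 and Xist, with Pltp at rank 7. For Orm3 they were Ctla2a (0.0597 and 0.0490), Orm2, Cd7, Col27a1 and Avil, with Pltp at rank 1610. For Pltp they were Ctnnbl1 (0.0625 and 0.0545), Ptpn6 (0.0863 and 0.0519), Anxa2, Ctla2b and Cox6c, with Orm2 at rank 13 and Orm3 at rank 1449. The median phi of all genes was under 0.001 for each member, and all coefficients were under 0.1, so the lists describe these cells and carry no more weight than that. Orm3, Stmn1 and Col27a1 lie on chromosome 4 with Orm2, and Ctnnbl1 on chromosome 2 with Pltp. Of the 50 genes most like Orm2, 16% were on chromosome 4, which holds 6.19% of the genes ranked. For Orm3 this was 14%, and for Pltp 4% were on chromosome 2, which holds 6.92%.

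Orm2 and Pltp were higher in DETCs with more UMIs, and Orm3 was not. DETCs of both libraries were split into terciles of total UMIs, cut on the pooled cells. From the lowest to the highest tercile Orm2 went from 39.5 to 71.9 CPM under isotype control and from 58.4 to 102 CPM under Skint1 antibody, a log2 difference of 0.86 (0.55 to 1.19) and 0.81 (0.61 to 1.00). Pltp went from 80.3 to 110 CPM and from 32.8 to 84.2 CPM, a log2 difference of 0.45 (0.23 to 0.68) and 1.36 (1.11 to 1.62). Orm3 went from 333 to 313 CPM and from 362 to 316 CPM, a log2 difference of -0.09 (-0.21 to 0.03) and -0.20 (-0.29 to -0.11). Between the libraries, the log2 ratio of Pltp was -1.29 (-1.60 to -0.99) in the lowest, -0.60 (-0.80 to -0.39) in the middle and -0.38 (-0.54 to -0.23) in the highest tercile, and the highest differed from the lowest by 0.91 (0.58 to 1.24). For Orm2 the ratios were 0.56, 0.64 and 0.51, which differed by -0.06 (-0.42 to 0.31) from the lowest to the highest. The lowest tercile held 26.1% of isotype control and 38.5% of Skint1 antibody DETCs. With the Skint1 antibody cells weighted to the isotype control mix of these terciles, the log2 ratio was -0.54 for Pltp and 0.55 for Orm2.

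Immediate early genes, which rise within minutes of a stimulus and of tissue digestion, went with lower levels of Pltp in both libraries and of Orm2 in the Skint1 antibody library. DETCs were split into terciles of the summed share of Fos, Fosb, Jun, Junb, Jund, Egr1, Nr4a1 and Ier2. From the lowest to the highest tercile Pltp went from 116 to 84.6 CPM and from 83.9 to 42.7 CPM, a log2 difference of -0.45 (-0.64 to -0.26) and -0.97 (-1.19 to -0.76). Orm2 was at 59.2, 66.4 and 52.2 CPM in the isotype control library, highest in the middle tercile, with a log2 difference of -0.18 (-0.43 to 0.07) between the ends that holds 0. In the Skint1 antibody library it went from 103 over 76.8 to 62.3 CPM, a log2 difference of -0.73 (-0.92 to -0.55). Orm3 went from 302 to 350 CPM and from 342 to 366 CPM, a log2 difference of 0.22 (0.11 to 0.32) and 0.10 (0.01 to 0.18). The log2 ratio of Orm2 between the libraries was 0.81 (0.60 to 1.01) in the lowest, 0.21 (0.01 to 0.41) in the middle and 0.25 (0.02 to 0.49) in the highest tercile, a difference of -0.55 (-0.86 to -0.24) from the lowest to the highest. That of Pltp was -0.46 (-0.64 to -0.29), -0.74 (-0.93 to -0.55) and -0.99 (-1.22 to -0.76). Both genes thus kept their direction in every tercile of this split, and the size of the difference varied with the state of the cells. Weighting to the isotype control mix of terciles left the ratios at 0.43 for Orm2 and -0.69 for Pltp.

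**Figure D4:**
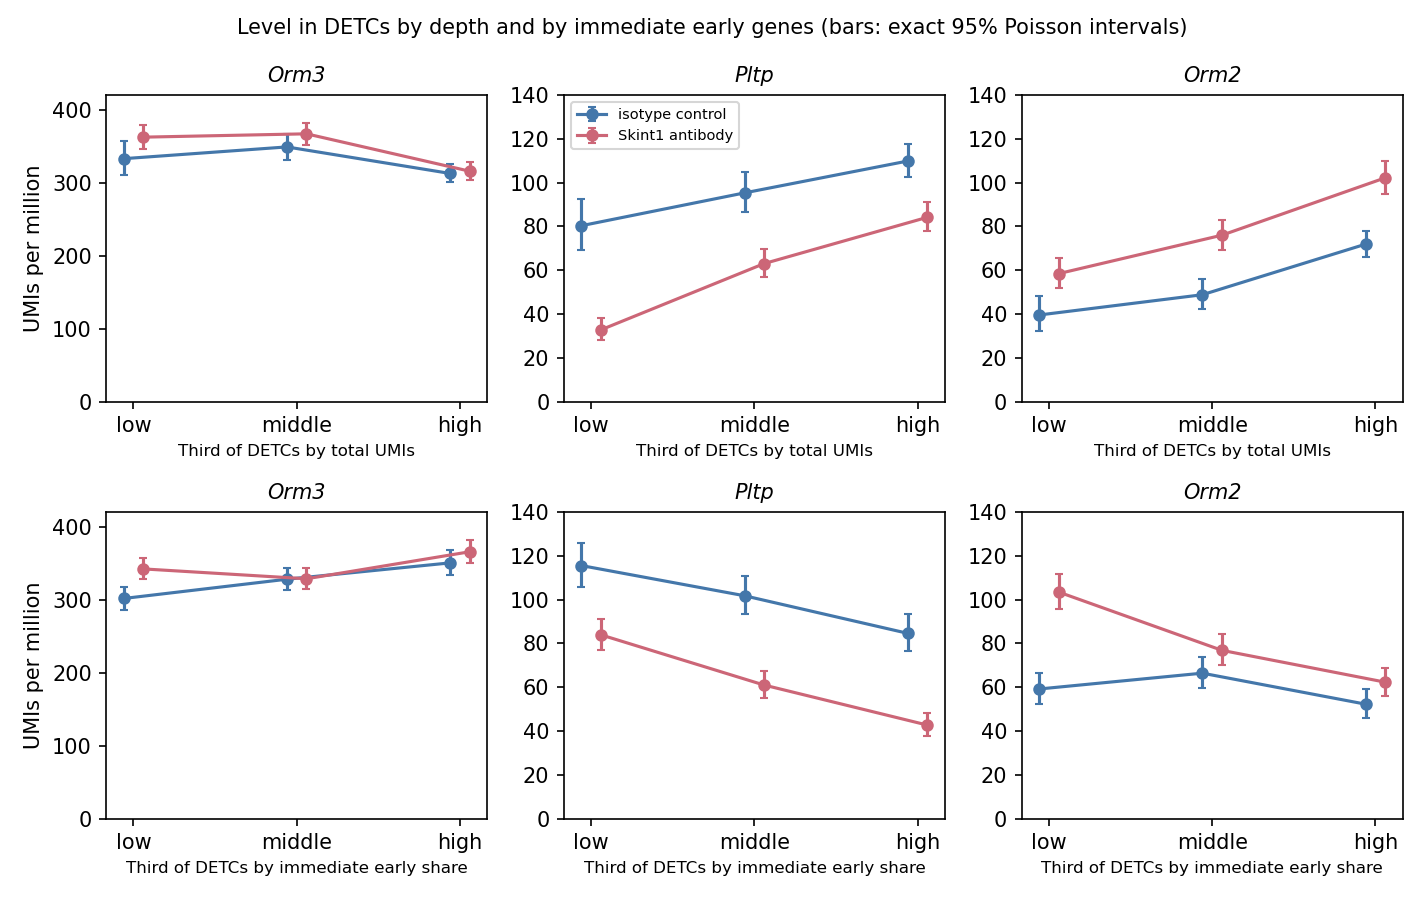
Levels of Orm3, Pltp and Orm2 in DETCs (CPM) by terciles of total UMIs (top) and of the immediate early share (bottom), in the isotype control library (blue) and the Skint1 antibody library (red), with exact 95% Poisson intervals. Pltp and Orm2 are higher in deeper cells and Orm3 is not. The Orm2 lines are farthest apart in the lowest immediate early tercile, at 59.2 and 103 CPM.

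Further splits were by quality, division and activation. In terciles of the mitochondrial share the log2 ratio between the libraries stayed between 0.38 and 0.55 for Orm2 and between -0.73 and -0.59 for Pltp. In terciles of heat shock genes it was 0.69, 0.46 and 0.30 for Orm2 and -0.45, -0.85 and -0.76 for Pltp, from lowest to highest, with a difference of -0.39 (-0.69 to -0.09) for Orm2 and -0.31 (-0.59 to -0.04) for Pltp between the ends. DETCs with 2 or more UMIs of cell division genes numbered 128 and 142. They were deeper than the others, with 3.61% and 2.87% of the DETCs and 4.59% and 3.94% of their UMIs, and the part of depth in this split was not tested. In them Orm2 was at 110 CPM (86.3 to 138) and 92.2 CPM (71.6 to 117), against 57.2 and 81.1 CPM in the other DETCs, so it was higher in dividing cells of the isotype control library (log2 0.94, 0.58 to 1.29) with an interval that holds 0 in the Skint1 antibody library (0.18, -0.19 to 0.54). Between the libraries the log2 ratio of Orm2 was -0.25 (-0.75 to 0.24) in dividing DETCs and 0.50 (0.38 to 0.63) in the others, a difference of -0.76 (-1.25 to -0.27). Orm3 and Pltp showed no such difference beyond counting error in either library. DETCs with a UMI of the activation genes Xcl1, Gzmc or Tnfrsf9 were 40.4% and 26.9% of the gate. This share was not thinned to an equal depth, and these cells were deeper than the others, with 42.4% and 29.1% of the UMIs of the gate, and the part of depth in the values of this split was not tested. Pltp was higher in them than in the other DETCs, at 112 against 92.2 CPM and at 69.7 against 60.5 CPM, a log2 difference of 0.28 (0.13 to 0.43) and 0.21 (0.03 to 0.38). Among DETCs without such a UMI the log2 ratio of Pltp between the libraries was -0.61 (-0.75 to -0.46), and that of Orm2 was 0.57 (0.41 to 0.72). In DETCs with one, that of Pltp was -0.68 (-0.87 to -0.50) and that of Orm2 was 0.28 (0.08 to 0.48), which is smaller than in the others by -0.29 (-0.54 to -0.04).

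Lists of related genes give the surroundings of the members. Of 24 other acute-phase and lipocalin genes, 11 had a UMI in DETCs and 0 reached 50 CPM, so none could be counted as higher or lower. The highest were Ahsg, encoding the serum protein fetuin-A, at 20.3 and 18.0 CPM, Rbp4, encoding the retinol carrier, at 7.37 and 0.535 CPM, Saa3, a serum amyloid A, at 2.18 and 1.60 CPM, and Serpina3g, a serine protease inhibitor, at 1.16 and 0.748 CPM. The Rbp4 UMIs were 108 and 10 in number and sat in 17 and 6 cells, with 41 in a single cell of the isotype control library and 101 of the 108 in 10 cells. Haptoglobin (Hp) had 1 and 0 UMIs, lipocalin-2 (Lcn2) 0 and 0. The hepatocyte genes Alb, Ttr, Serpina1a and Fgb were at 0 in DETCs of both libraries, and the fifth hepatocyte or serum gene looked at, Apoa1, was at 1.09 and 0.962 CPM.

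Of 10 regulators of orosomucoid transcription, 3 reached 50 CPM, the level a gene needed to be counted, and 0 of these 3 passed the limit of 0.32 in either direction, against 0.210% (higher) and 1.50% (lower) of all genes at that level. Below it, Il6st, a subunit of the IL-6 receptor, was at 14.3 and 10.1 CPM, a log2 ratio of -0.50 (-0.80 to -0.21). Il6ra, the other subunit listed, lay the other way, at 22.5 and 27.0 CPM, a log2 ratio of 0.26 (0.06 to 0.47). Cebpb, a C/EBP factor, was at 610 and 640 CPM in DETCs, against 167 and 245 CPM in αβ T cells. Nr3c1, the glucocorticoid receptor, was at 78.7 and 77.7 CPM, Stat3, the factor activated by IL-6, at 81.5 and 74.1 CPM and Cebpg at 41.8 and 40.4 CPM. Cebpa had 0 and 3 UMIs. Of 12 glucocorticoid response genes, 8 reached 50 CPM and 0 of these 8 passed that limit, with a median log2 ratio of -0.00013. Ddit4, an inhibitor of mTORC1 signalling below that level, was at 15.3 and 20.5 CPM, a log2 ratio of 0.42 (0.18 to 0.67). The highest were Nfkbia, the inhibitor of NF-κB, at 1253 and 1214 CPM, Dusp1, a MAP kinase phosphatase, at 898 and 900 CPM, Txnip, a thioredoxin-binding protein, at 523 and 525 CPM, and Errfi1, a feedback inhibitor of the EGF receptor, at 413 and 412 CPM. Further down the list, members lay on both sides of 0. Tsc22d3, encoding the glucocorticoid-induced leucine zipper protein GILZ, was at 301 and 369 CPM, a log2 ratio of 0.29 (0.24 to 0.35) and the 11th highest of 2859 genes. Sgk1, a glucocorticoid-induced kinase, was at 187 and 164 CPM, a log2 ratio of -0.19 (-0.27 to -0.12). The median over all genes was -0.03.

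Of 13 lipid transfer and BPI family genes, 12 were in the files, 8 had a UMI and 0 reached 50 CPM. Scarb1, the HDL receptor, was highest at 17.3 and 17.9 CPM, followed by Apoe at 1.91 and 3.58 CPM, Apoa1 at 1.09 and 0.962 CPM and Apoc1 at 0.614 and 1.18 CPM. Apoe and Apoc1 were far higher in the CD3-low gate, at 81.0 and 500 CPM and at 26.1 and 152 CPM. Lbp had 0 and 1 UMIs and Bpi 0 in both libraries, so Pltp was the only gene of its list, itself not counted among the 13, above 50 CPM in DETCs. Of 17 cholesterol efflux and LXR target genes, 4 reached 50 CPM, 0 of these 4 passed that limit, and their median log2 ratio was -0.09. They were Npc2, a lysosomal cholesterol carrier, at 194 and 201 CPM, the desaturase gene Scd2 at 79.3 and 74.6 CPM, Soat1, which esterifies cholesterol, at 75.9 and 70.8 CPM, and Rxra, the partner receptor of LXR, at 61.5 and 56.5 CPM. Below that level, Abca1, Abcg1 and Srebf1 had log2 ratios of 0.03 (-0.14 to 0.21), -0.06 (-0.20 to 0.09) and -0.07 (-0.26 to 0.11), intervals that hold 0. Those of Mylip and Lpcat3 were -0.17 (-0.333 to -0.007) and -0.24 (-0.467 to -0.006). The desaturase gene Scd1, on 56 and 47 UMIs, was at 3.82 and 2.51 CPM, a log2 ratio of -0.60 (-1.20 to -0.02). Of the LXR genes themselves, Nr1h2 was at 45.4 and 42.3 CPM and Nr1h3 had 2 and 0 UMIs.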

How the data were processed

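The deposited matrices hold raw UMI counts per gene and barcode, which the authors made with Cell Ranger 3.0.2 (10x 3′ v3 chemistry, mm10 index, the GRCm38 assembly), with every barcode kept and no cell filter. Counts of a gate were summed per library and divided by the UMIs of the gate (CPM, no pseudocount), using numpy 2.4.6, pandas 2.3.3 and scipy 1.17.1 under Python 3.11.15. Sequences were aligned with Biopython 1.88. Genes were compared above a mean of 50 CPM, with a log2 ratio of 0.32 between libraries and 2-fold between gates as limits. The members, gates, lists and limits were chosen with earlier results of these data known. The genes named are the 4 members, gate and marker genes, the 4 highest genes of each list and the 5 most alike by phi. Haptoglobin, Lcn2, Lbp, Bpi, Cebpa, Nr1h2, Nr1h3, Tsc22d3, Sgk1, Il6st and Il6ra were added after their values were seen. So were Ddit4, Abca1, Abcg1, Srebf1, Mylip, Lpcat3 and Scd1. Scrublet, as built into scanpy 1.11.5, scored doublets. Its threshold marked 1 of 4709 and 0 of 6425 barcodes and so did not work, and the highest 177 and 330 scores were left out only as an alternative. Thinning drew UMIs without replacement from each cell. Its co-detection intervals are means over the draws, and the shares' intervals use the mean count. The ratios between strata use a normal approximation of counting error. Ratios, thinning and odds ratios were tested on simulated data. Alternatives changed the gene and mitochondrial limits, doublets, gates, richest cells, weighting and thinning.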

Additional observations from a re-analysis of the deposited data

Results flagged for a closer look

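Signals of Orm2 were present in barcodes that the DETC comparison left out. In free RNA, barcodes with 1 to 100 UMIs, the log2 ratio of Orm2 between the Skint1 antibody and isotype control libraries was 0.519 (0.177 to 0.864), on 167 and 126 UMIs. In barcodes of the DETC gate with more than 2500 genes it was 0.338 (0.074 to 0.602), on 257 and 225 UMIs. Both had the direction seen in DETCs. They come from the same pair of libraries and are no replicate of it.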

How the results depend on the processing

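The 123 recomputed values, from 19 quantities, turned no direction whose interval left out 0 (or 1 for an odds ratio), and 103 stayed within the interval of the value in the text. The log2 ratio between libraries ranged from 0.39 to 0.55 for Orm2 over 11 alternatives, from 0.025 to 0.11 for Orm3 and from -0.84 to -0.54 for Pltp. With at most 5% mitochondrial UMIs it was 0.025 (-0.067 to 0.118) for Orm3, which takes in 0. For Pltp it was -0.84 with DETCs gated by Trdc and Trdv4, and -0.54 with Skint1 antibody cells weighted to the isotype control mix of total UMIs. The log2 ratio of DETCs over αβ T cells was 4.11 and 3.92 for Orm3 and 6.19 and 5.58 for Pltp without the 10 cells of each gate with most UMIs of the gene. This had to raise it, since 24 and 27 αβ T cells held an Orm3 UMI and 11 and 11 a Pltp UMI, and says nothing of stability. Without Trdc-positive αβ T cells it was 3.24 and 6.69 for Orm3, and 5.24 for Pltp in the Skint1 antibody library. There, Pltp was at 0.98 with no upper limit on genes and at 4.25 with at most 5% mitochondrial UMIs. Orm2 gave no such value without those 10 cells in either library, nor without Trdc-positive cells in the Skint1 antibody library, as αβ T cells then held 0 UMIs of it. Without thinning, the share of DETCs with Orm3 differed by -0.628 points and that with Pltp by -11.9 points, and thinning to 1000 UMIs gave -3.37 points for Pltp. Odds ratios without thinning were 1.90 and 1.89 for Orm2 with Orm3, 1.61 (1.33 to 1.94) and 1.87 for Orm2 with Pltp, and 1.18 (1.01 to 1.38) and 1.69 for Orm3 with Pltp. Of these, Orm2 with Pltp under isotype control and both of Orm3 with Pltp had intervals that took in 1 after thinning and left it out without it. The interval of Orm2 with Orm3 took in 1 with thinning to 1000 UMIs (0.997 to 1.94 and 0.991 to 1.61) and, under isotype control, with at most 5% mitochondrial UMIs (0.917 to 2.02). That of Orm2 with Pltp under Skint1 antibody took in 1 with thinning to 1000 UMIs (0.762 to 1.95), at most 5% mitochondrial UMIs (0.775 to 2.11) and without the highest doublet scores (0.956 to 1.67). The causes were not tested. The tercile weightings, the αβ T cell gate without Trdc and the averaging over draws were chosen after seeing the data. With 1 library a treatment, no library could be left out. No paired analysis was possible because each treatment has 1 library. Depth limits the small gates, where 3 UMIs stand for 7.83 and 4.55 CPM in the CD3-low gate and 4.73 and 5.02 CPM in αβ T cells without Trdc.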
